A study of Mus musculus with 48 samples.

Results

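Spleen monocytes were the 528 spleen cells that the study's own annotation labelled monocytes, taken from 3320 annotated spleen cells and 12096 annotated cells in all organs, where 592 cells carried this label. They came from male DBA1/J mice aged 8 to 12 weeks per the study's methods. The 6 mice with collagen-induced arthritis (CIA) received 100 µg of bovine collagen II in complete Freund's adjuvant near the tail base and a booster in incomplete adjuvant on day 20, whereas the 4 healthy mice received PBS. Mice S1, S2 and S3 had severe arthritis (summed score 8) and belonged, with healthy mouse H3, to the experiment titled 2CIA. Mice S5 (score 4 to 5), S6 (3 to 4) and S8 (2 to 3) had mild arthritis and belonged, with healthy mice H4, H6 and H7, to the experiment titled CIA. Spleens were cryopreserved, thawed, pressed through a strainer and treated with red cell lysis buffer before single-cell RNA-seq by Seq-Well, in which cells and barcoded beads share microwells and each transcript carries a unique molecular identifier (UMI).

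Classical monocytes carry *Ccr2* and high Ly6C and leave the bone marrow for inflamed tissue, while non-classical monocytes depend on the nuclear receptor *Nr4a1*, carry *Cx3cr1* and patrol vessel walls. The spleen holds a monocyte reservoir beside red pulp macrophages, which recycle iron and depend on the transcription factor *Spic*, and dendritic cells, which present antigen. It also holds plasma cells, whose transcripts are dominated by immunoglobulin and by *Jchain*, the chain that joins IgM and IgA units.

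Each mouse gave 21 to 169 monocytes, with 172 cells in healthy and 356 in CIA mice, and 15580 to 175378 UMIs summed over these cells. Single cells had 423 to 3999 UMIs, and no barcode of the 528 occurred in more than 1 library. Monocytes made up 13.3% (H3), 18.1% (H4), 23.3% (H6) and 13.8% (H7) of annotated spleen cells in healthy mice, and 12.3% to 18.6% (median 13.7%) in CIA mice. The means, 17.1% ± 4.63 (SD, n = 4) and 14.7% ± 2.70 (SD, n = 6), did not differ beyond the spread between mice (exact two-sided permutation test, p = 0.276). The median UMIs per monocyte averaged 752 ± 80.2 and 843 ± 222 (SD; n = 4 and 6; exact permutation p = 0.467).

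The label was checked against its markers, and the data partly went against it. The study itself used these markers to name or check its clusters, so finding them is no independent support for the label. *F13a1*, the coagulation factor XIII A chain of classical monocytes, had a UMI in 12.8% of the 461 monocytes with under 10% of their UMIs on immunoglobulin genes, after each cell was thinned to 400 UMIs. This share was 0.254% in spleen B cells and 0% in NK cells (0 of 471 cells had a UMI), whose median depths of 587.5 and 589 UMIs were below the 772 of these monocytes. *Ccr2*, the receptor for *Ccl2*, gave 15.8% in these monocytes, 1.10% in B cells and 7.22% in NK cells. Without thinning, a UMI was seen in 18.9% of these cells for *F13a1*. All 187 UMIs of *F13a1* came from them, and the remaining 67 cells had 0.

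These 67 cells were rich in immunoglobulin transcripts. They formed a group of their own along this measure, since 419 monocytes had under 1% of their UMIs on immunoglobulin genes, 46 had at least 40%, and 4 and 7 lay from 5% to 10% and from 10% to 20%. The median share was 50.9% in the 67 cells and 0.244% in the others, and their median UMI counts were 1129 and 772. The group held 3952 *Jchain* UMIs (97.9% of all in monocytes), 12750 *Igkc* UMIs (95.1%), 6530 *Ighm* UMIs (95.8%) and 383 UMIs of *Mzb1* (83.1%), an endoplasmic reticulum protein that assists antibody assembly. A *Jchain* UMI was present in 98.5% of the 67 cells against 10.4% of the others. *Jchain*, *Igkc* and *Ighm* are among the immunoglobulin genes that set the cut, so their shares follow from it. *Mzb1* is not among those genes. Of further genes outside the cut, the 67 cells held 9 UMIs of the plasma cell syndecan *Sdc1* against 4 in the others. They held 13 of *Fkbp11* against 2 and 5 of the survival receptor gene *Tnfrsf17* against 1, and 117 UMIs (50%) of the secretory regulator *Xbp1*. From these genes outside the cut, several of them at few UMIs, the 67 cells are called plasma cell-like below. The leading heavy chain was *Ighm* in 60 of them, *Ighg3* in 3, *Ighg1* in 2 and *Igha* in 2.

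**Figure D1:**
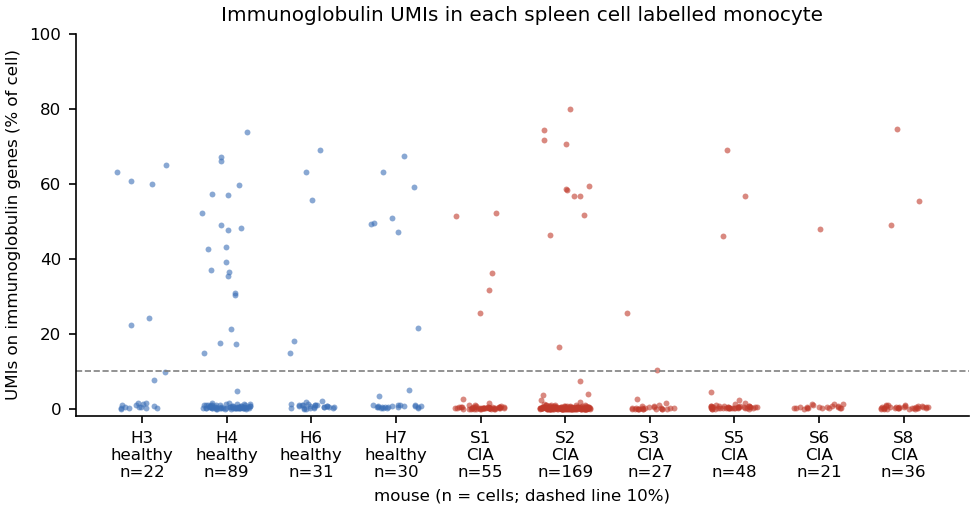
Share of each cell's UMIs on immunoglobulin genes (percent, vertical axis) for the 528 spleen monocytes by mouse (horizontal axis), blue for healthy and red for CIA; each point is a cell and the dashed line marks 10%. Most cells sit near 0 in each mouse, and the separate upper cloud holds 41 cells from healthy and 26 from CIA mice.

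Plasma cell-like cells took a smaller share of the monocyte label in CIA mice. They were 27.3% (H3), 24.7% (H4), 16.1% (H6) and 26.7% (H7) of the monocytes of healthy mice, and 4.76% to 9.09% (median 7.25%) in CIA mice, so the groups did not overlap. The means were 23.7% ± 5.16 (SD, n = 4) and 7.16% ± 1.53 (SD, n = 6), a difference of -16.5 percentage points with p = 0.00476 in the exact two-sided permutation test, the smallest p that 4 against 6 mice allow. Within the experiment CIA the difference was -16.1 points, with p = 0.1 in the exact test, the smallest for 3 against 3 mice. The cut of 10% and this comparison were chosen with the lower immunoglobulin transcripts of CIA mice known, so they are no independent support for them.

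The other 461 cells were clustered without any gene that reached an unadjusted p below 0.05 between CIA and healthy mice, so that cluster sizes could be set side by side. The largest cluster, 219 cells, was led by *Ppt1*, *Naaa*, a lysosomal hydrolase, *Plbd1* and the MHC class II genes *H2-Ab1* and *H2-Aa*, and it is left unnamed. It held *Clec9a* at 89.2 CPM (UMIs of a gene per 1000000 UMIs, here of the pooled cells), a receptor of cross-presenting dendritic cells, against 0 in the second cluster. The second cluster, 180 cells, was led by *Lyz2*, *Hp*, *Mgst1* and *F13a1* and is called classical monocyte-like. Its *F13a1* level was 947 CPM against 113 CPM in the *Naaa* cluster and 0 in the third, and *Lyz2*, the lysozyme gene, stood at 18117 CPM against 2783 and 350. Of the label's other markers, *Ccr2* and *Ccl6* were also highest there, whereas *Il1b* was highest in the *Naaa* cluster, at 202 against 69.7 CPM. The third cluster, 62 cells, was led by *Siglech*, *Bst2*, *Tcf4* and *Ccr9*, markers of plasmacytoid dendritic cells, and is called dendritic cell-like. *Siglech* was at 2080 CPM there, at 32.9 in the *Naaa* cluster and at 0 in the *F13a1* cluster.

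Lists of marker genes divided in the same way over these cells. Classical monocyte genes took 3.83% of the UMIs in the *F13a1* cluster, 0.789% in the *Naaa* cluster, 0.840% in the *Siglech* cluster and 0.254% in the plasma cell-like cells. MHC class II genes took 2.10% in the *Naaa* cluster and 0.449% in the *F13a1* cluster. Cell cycle genes took 0.410% in the *F13a1* cluster, above the 0.195% and 0.132% of the other clusters and the 0.0672% of plasma cell-like cells. Granulocyte genes were also highest in the *F13a1* cluster, at 2.10%, against 0.432% in the *Naaa* cluster, 0.700% in the *Siglech* cluster and 0.272% in plasma cell-like cells. The clusters' own leading genes belong to some of these lists, so these shares describe the clusters and test nothing.

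The *F13a1* cluster made up 25% (H3), 11.9% (H4), 23.1% (H6) and 22.7% (H7) of the low-immunoglobulin cells of healthy mice, and 17.8% to 68.0% (median 49.3%) of those of CIA mice. S5 at 17.8% lay inside the healthy range, and the other CIA mice lay above it. The *Naaa* cluster took 68.8%, 79.1%, 50% and 54.5% in H3, H4, H6 and H7, and 28% to 64.4% (median 36.9%) in CIA mice, with overlap. The *Siglech* cluster took 6.25% to 26.9% in healthy and 4% to 17.8% in CIA mice. With 4 clusters in place of 3, a number tried after the data were seen, the *F13a1* cluster held 132 cells and 7.46% to 31.3% of healthy against 31.8% to 48% of CIA cells, and with 5 it held 124 cells and 7.46% to 18.8% against 24.4% to 40%. The groups overlapped with 3 clusters and not with 4 or 5. With 4 clusters, 108 of the 132 cells were shared with the *F13a1* cluster of 180 cells. A further cluster of 79 cells was then led by *Gm36266* and the cell cycle genes *Top2a* and *Mki67*. Its leading genes also held *Camp* and *Ngp* of the granulocyte list.

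**Figure D2:**
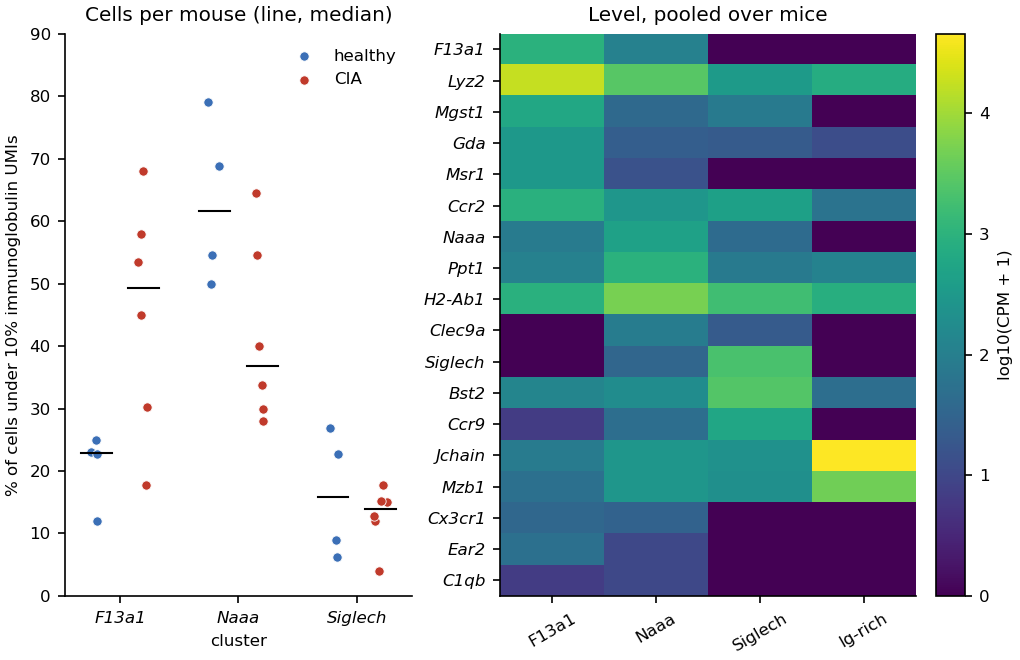
Left, share (percent) of the cells under 10% immunoglobulin UMIs that fell in the F13a1, Naaa and Siglech clusters, a point per mouse (blue healthy, red CIA) with the median as a line. Right, level of marker genes as log10(CPM + 1) pooled over mice in the clusters and in the plasma cell-like (Ig-rich) cells; F13a1 and Lyz2 are highest in the F13a1 cluster, Siglech in the Siglech cluster and Jchain in the Ig-rich cells.

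Non-classical monocyte transcripts were sparse. Of 15 such genes in the count table, 14 were detected and none was abundant enough to be tested. Their sum was 0.0426% to 0.0857% of the UMIs in healthy and 0.0491% to 0.110% in CIA mice, overlapping, and it was 0.0522% to 0.0680% in healthy spleen B cells. *Nr4a1*, the regulator of this subset, had 22 UMIs in healthy and 74 in CIA mice. At 400 UMIs per cell it was seen in 8.46% of low-immunoglobulin monocytes, in 6.77% of B cells and in 8.07% of NK cells. It therefore did not set these monocytes apart. *Cx3cr1*, the fractalkine receptor, had 2 UMIs in healthy and 10 in CIA mice, and after thinning it was seen in 1.30% of low-immunoglobulin monocytes and in 0% of B and NK cells. *Gngt2*, a G protein subunit of this subset, had 20 and 61 UMIs, and *Treml4* had 0 and 5.

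Splenic macrophage transcripts were rarer still. The 18 genes of this list summed to 0.00387% to 0.0163% of UMIs in healthy and 0.00701% to 0.0238% in CIA mice, and none was tested. The complement genes *C1qa* and *C1qc*, the red pulp factor *Spic*, *Cd5l*, *Mertk*, *Marco*, *Timd4* and *Vsig4* had no UMI in any spleen monocyte, and for the 461 low-immunoglobulin cells a count of 0 allows up to 0.651% of cells with a UMI. Such limits and all shares of UMIs cover counting error only. *Hmox1*, the haem oxygenase of iron-recycling macrophages, was the most abundant of the list with 2 UMIs in healthy and 21 in CIA mice.

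CIA was then compared with healthy mice on counts summed over each mouse's monocytes, which mix the groups of cells above, and there fewer cells of a type and less RNA per cell cannot be told apart. The quasi-likelihood test of edgeR, adjusted by Benjamini-Hochberg, called 18 of 456 genes higher in CIA (3.95%) and 11 lower (2.41%). With the plasma cell-like cells left out, it called 16 of 432 genes higher (3.70%) and 1 lower (0.231%), and all 17 were among the 29 called before. Since immunoglobulin UMIs set that cut, the loss of lower immunoglobulin calls is built into it. The values of 15 of the 18 higher and 5 of the 11 lower genes did not overlap between healthy and CIA mice, against 42 of the 456 tested (9.21%), and the calls used the same values. With plain library sizes in place of trimmed mean of M-values (TMM) scaling, 40 genes were higher and 4 lower, which moved the higher share of calls from 62.1% to 90.9% and the median log2 fold change of all genes from 0.01 to 0.35.

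Leaving out single mice lowered the counts. Without H3, H4, H6 or H7, 9, 4, 3 and 10 genes were higher and 7, 4, 4 and 4 lower. Without S1, S2, S3 or S6, 11, 8, 7 and 10 were higher. Without S3, S5, S6 or S8, 6, 5, 6 and 6 were lower. *Ifi27l2a*, *Ifi202b*, *Plac8*, *Igkv1-135*, *Iglc2* and *Iglc3* were called in each of these 10 fits. Within the experiment CIA alone, with 3 mice a group, *Ifi27l2a* and *Ifi202b* were higher and *Igkv1-135* was lower, and all 24 called genes that were tested there kept their direction. The experiment 2CIA held 1 healthy mouse and gave no test of its own. With the experiment as a term in the fit, 13 genes were higher and 10 lower, and *Lgals3* (adjusted p = 0.058), *Ifitm2* (0.0656), *Tspo* (0.0646), *S100a4* (0.0666), *Ccl2* (0.0864), *Ighm* (0.0603), *Snord13* (0.0664) and *Malat1* (edgeR, adjusted p = 0.0882) lost their calls with their directions kept.

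Of the 20 genes on the interferon response list 3 were tested and 2, *Ifi27l2a* and *Ifitm3*, were called higher, against 3.95% of all genes tested. *Ifi27l2a* (chr12:103442167-103443680 in the GRCm38 annotation, minus strand), a small membrane protein gene induced by type I interferon, had levels of 361 (H3), 117 (H4), 116 (H6) and 122 CPM (H7) in healthy mice. In CIA mice it had 1223 to 3526 CPM (median 2162), above each healthy mouse. It rose by a log2 fold change of 3.56 ± 0.45 (SE; edgeR, adjusted p = 0.000675), and by 3.48 (adjusted p = 0.00194) within the experiment CIA. Without the plasma cell-like cells the log2 fold change was 3.92 (adjusted p = 0.00015). The near-identical *Ifi27l2b* may share its reads.

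*Ifi202b* (chr1:173962568-173982744, minus strand), a p200 family gene whose protein binds DNA in the cytosol, had 103 (H3), 106 (H4), 194 (H6) and 81.6 CPM (H7) in healthy mice. In CIA mice its levels lay between 679 and 842 CPM (median 721), with no overlap. Its log2 fold change was 2.39 ± 0.28 (SE; edgeR, adjusted p = 0.000675), and 2.40 (adjusted p = 0.028) within the experiment CIA. It belongs to a cluster of similar genes, so reads of a close copy cannot be told apart. Low-immunoglobulin cells held 272 of its UMIs and plasma cell-like cells 3.

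*Ifitm3* and *Ifitm2*, membrane proteins that block virus entry, also rose. *Ifitm3* had 258, 138, 271 and 449 CPM in H3, H4, H6 and H7 and 770 to 1671 CPM (median 1024) in CIA mice, with a log2 fold change of 1.87 ± 0.37 (SE; edgeR, adjusted p = 0.0159). *Ifitm2* had 51.5, 63.6, 116 and 245 CPM and 262 to 827 CPM (median 467), with a log2 fold change of 2.03 ± 0.50 (SE; edgeR, adjusted p = 0.0354). Neither gene overlapped between the groups. *Bst2*, the third tested gene of the interferon response list, was not called (log2 fold change 0.37, edgeR adjusted p = 0.842). Beside *Ifi202b*, the tested p200 family genes, which are not on that list, were *Ifi211* and *Ifi207*, not called, with log2 fold changes of 1.22 (adjusted p = 0.0549) and 1.14 (edgeR, adjusted p = 0.314). The list's median log2 fold change was 1.87, against 0.01 for all genes tested.

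The promoters of the *Ifitm* pair are shown because both genes rose. A run resembling the interferon-stimulated response element could also be looked for in them. They are the RefSeq reference (GRCm38.p6, minus strand), 250 bases before to 50 after the start, 5′ to 3′, at chr7:140955912-140956211 for *Ifitm2* and chr7:141010695-141010994 for *Ifitm3*, with capitals on matches to GAAANNGAAA, searched on both strands.
Ifitm2: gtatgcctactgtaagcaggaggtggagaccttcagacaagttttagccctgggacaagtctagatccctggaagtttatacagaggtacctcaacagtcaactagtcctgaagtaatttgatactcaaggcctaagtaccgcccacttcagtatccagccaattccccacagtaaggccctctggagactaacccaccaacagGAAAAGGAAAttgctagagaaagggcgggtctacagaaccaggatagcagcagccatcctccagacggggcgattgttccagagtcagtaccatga
Ifitm3: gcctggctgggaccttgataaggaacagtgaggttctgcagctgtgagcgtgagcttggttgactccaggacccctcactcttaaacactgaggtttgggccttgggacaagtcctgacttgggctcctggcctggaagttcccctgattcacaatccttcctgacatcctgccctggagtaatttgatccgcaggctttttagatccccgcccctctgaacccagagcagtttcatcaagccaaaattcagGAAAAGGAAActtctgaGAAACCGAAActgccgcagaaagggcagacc
*Ifitm2* held 1 match and *Ifitm3* held 2. Among 32851 promoters of the same length 3.44% held the motif. Of the 18 higher genes 13 had a promoter in the table, and the *Ifitm* pair were the 2 with a match (15.4%). This share counts genes, which had 15 promoters, whereas the 3.44% counts promoters, so the 2 are not like measures. The pair are neighbouring related genes that share the run GAAAAGGAAA, so their matches are not independent. A match describes letters only.

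Most tested genes of the classical monocyte list were higher. Of 19 genes on this list 12 were tested, 8 were called higher (against 3.95% of all genes tested) and none lower, and their median log2 fold change was 1.65 against 0.01 for all genes tested. With plasma cell-like cells left out, 7 of 12 were higher (against 3.70%). The list was chosen with results of these data known, so its count is no independent evidence. Its share of all UMIs was 0.465% to 0.804% in healthy and 1.54% to 2.56% in CIA mice, without overlap, and in B cells it was 0.138% to 0.301% and 0.231% to 0.432%. The 8 genes were *Ifi27l2a*, *Plac8*, *Hp*, *Ms4a4c*, *Ms4a6c*, *Ly6c2*, *S100a6* and *S100a4*. *Ifi27l2a* is also on the interferon response list, and *S100a6* and *S100a4* are also on the S100 list, so the counts of these lists share genes.

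*Plac8*, a small cysteine-rich protein gene abundant in myeloid cells, had 1185 (H3), 742 (H4), 1007 (H6) and 898 CPM (H7) in healthy mice. CIA mice had 2509 to 4104 CPM (median 3321), with no overlap and a log2 fold change of 1.56 ± 0.26 (SE; edgeR, adjusted p = 0.0042). *Ly6c2*, the Ly6C antigen of classical monocytes, had 361, 127, 38.7 and 122 CPM in the same order, and 309 to 1237 CPM (median 692) in CIA mice. H3 lay above the lowest CIA mouse, and the log2 fold change was 2.13 ± 0.52 (SE; edgeR, adjusted p = 0.0354). Reads of *Ly6c2* and its near copy *Ly6c1* may be shared. In plasma cell-like cells *Ly6c2* was at 799 CPM, close to the 671 CPM of the other cells, and leaving them out gave a log2 fold change of 2.26 (edgeR, adjusted p = 0.022). By cluster it was at 1156 CPM in the *F13a1*, 1030 in the *Siglech* and 197 in the *Naaa* cluster. It thus did not set the classical monocyte-like cells apart from the dendritic cell-like cells.

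*Hp*, haptoglobin, which binds free haemoglobin, had 0, 53.0, 38.7 and 40.8 CPM in H3, H4, H6 and H7 and 174 to 844 CPM (median 581) in CIA mice. It rose by a log2 fold change of 3.45 ± 0.73 (SE; edgeR, adjusted p = 0.0204). *Ms4a4c* and *Ms4a6c*, tetraspan membrane proteins of myeloid cells, rose by 2.30 ± 0.51 (adjusted p = 0.0254) and 1.83 ± 0.42 (edgeR, adjusted p = 0.0304). *Ms4a4c* did not overlap, and *Ms4a6c* overlapped because H3 stood at 412 CPM against a CIA low of 408 CPM. *F13a1* itself did not pass. Its levels were 155, 74.2, 77.4 and 204 CPM in healthy mice and 135 to 772 CPM (median 507) in CIA mice, with overlap and a log2 fold change of 1.75 ± 0.56 (SE; edgeR, adjusted p = 0.0976). *Lyz2* missed the threshold as well (log2 fold change 1.15 ± 0.32, adjusted p = 0.0551), although its groups, 2196 to 5307 and 6736 to 12802 CPM, did not overlap. *Ccr2* had a log2 fold change of 0.87 ± 0.51 (edgeR, adjusted p = 0.427).

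Some classical monocyte genes were too low to be tested. *Vcan*, the proteoglycan versican, had 0 UMIs in healthy and 24 in CIA mice, a level at least 3.68-fold higher against a floor of 3 counts over the healthy group. *Fcgr1*, the high-affinity IgG receptor, had 0 and 16 UMIs (at least 2.46-fold higher), and the chitinase-like gene *Chil3* had 0 and 14 (at least 2.15-fold higher). These genes were named because they stood at 0 in healthy mice, so their folds are no support of their own. The counts are pooled over mice, and S2 gave 175378 of the 356105 UMIs of CIA mice. *Mgst1*, a glutathione transferase, had 10 and 111 UMIs. The label's other markers were low in both groups. *Ccl6*, a chemokine, had 361, 95.5, 194 and 81.6 CPM in H3, H4, H6 and H7 and 70.1 to 258 CPM (median 155) in CIA mice. *Il1b*, the inflammatory cytokine, had 155, 170, 155 and 81.6 CPM and 0 to 246 CPM (median 137). Both ranges overlapped, and *Cxcl3* had 0 UMIs in healthy and 2 in CIA mice.

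**Figure D3:**
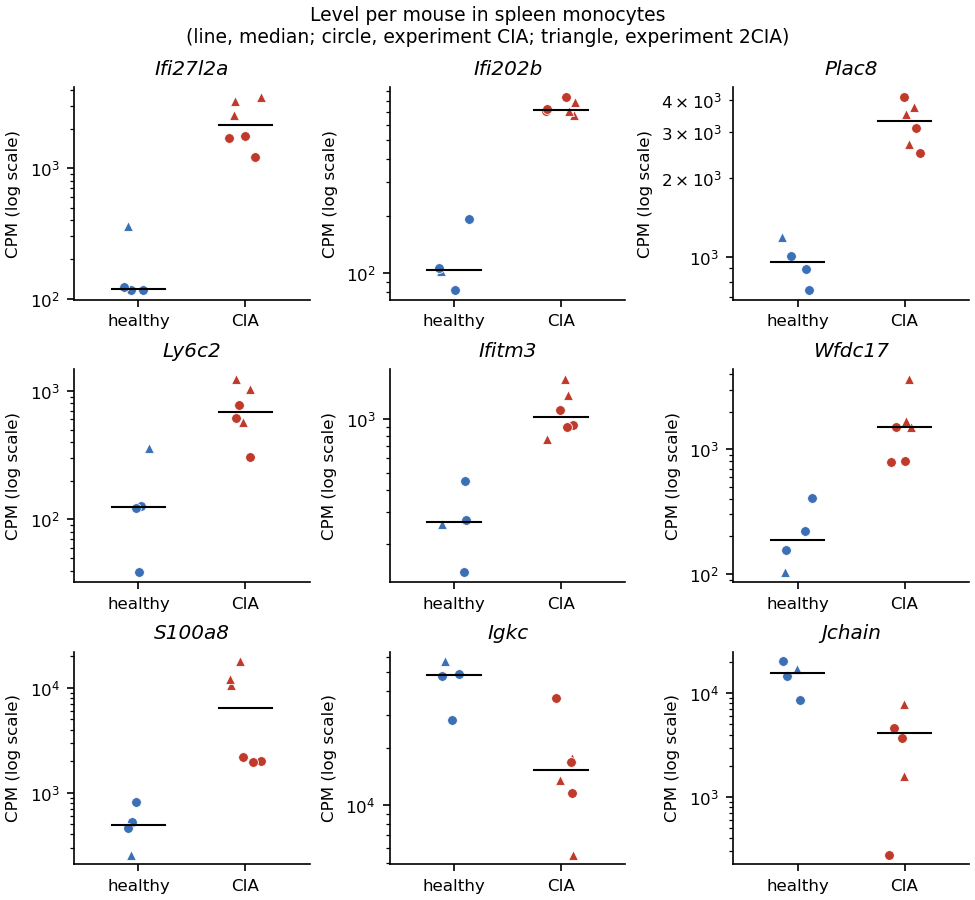
Levels (CPM, log axis) of 9 genes in spleen monocytes, a point per mouse (blue healthy, red CIA; circle experiment CIA, triangle experiment 2CIA) with the median as a line. Ifi27l2a, Ifi202b, Plac8, Ifitm3, Wfdc17 and S100a8 were higher in each CIA mouse than in any healthy mouse, Ly6c2 and Igkc overlapped, and Jchain was lower in each CIA mouse.

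Levels within the clusters were examined for mice with at least 5 cells of a cluster, as a description, since the clusters were made from these cells. In the *F13a1* cluster *Ifi27l2a* was at 0 to 451 CPM in 3 healthy mice and at 3051 to 4905 CPM in 6 CIA mice. In the *Naaa* cluster it was at 74.6 to 450 CPM in 4 healthy and 474 to 2215 CPM in 6 CIA mice, and in the *Siglech* cluster at 0 to 223 CPM in 3 and 463 to 2210 CPM in 4. It did not overlap in any of the 3 clusters, but the healthy side rests on few UMIs. All healthy mice together held 3 UMIs of it in 23 cells of the *F13a1* cluster. They held 11 in 89 cells of the *Naaa* cluster and 1 in 19 cells of the *Siglech* cluster. *Plac8* did not overlap in the *F13a1* cluster (585 to 1579 against 2989 to 7432 CPM) or the *Naaa* cluster (622 to 1237 against 1736 to 3089 CPM), and it overlapped in the *Siglech* cluster. *Ms4a4c* in the *F13a1* cluster was at 0 to 292 CPM in healthy mice, from 2 UMIs, and 363 to 1316 CPM in CIA mice. Of the other higher genes, *Ifi202b*, *Ifitm3*, *Hp*, *Ms4a6c* and *Ly6c2* did not overlap there. *S100a8*, *S100a9*, *S100a6*, *S100a4*, *Wfdc17*, *Lgals3*, *Tspo*, *Alox5ap*, *Ccl2* and *Ifitm2* overlapped there. These genes had been called on counts of the same cells, and the share of all genes without overlap in a cluster was not determined. *Lyz2* overlapped within the *F13a1* cluster, at 14885 to 23670 and 11591 to 33514 CPM.

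*H2-Ab1* and *Cd74*, named after their values were seen, stood the other way in the same cluster. *H2-Ab1*, an MHC class II beta chain, was at 2932 to 5260 CPM in the *F13a1* cluster of 3 healthy mice and at 218 to 928 CPM in that of 6 CIA mice. The class II invariant chain *Cd74* was at 7306 to 8471 and 270 to 1546 CPM there. The healthy side of these values rests on 19 cells, 8 of H4, 6 of H6 and 5 of H7. In the *Naaa* cluster *H2-Ab1* overlapped, at 2361 to 6695 and 2376 to 6606 CPM. Over all monocytes none of the 4 tested MHC class II genes was called, and their median log2 fold change was -0.68. *Cd74* came nearest, with a log2 fold change of -0.95 ± 0.29 (edgeR, adjusted p = 0.0807).

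*S100a8* and *S100a9*, which form the alarmin calprotectin of neutrophils and monocytes, were higher in CIA mice and differed by severity. *S100a8* (chr3:90668978-90670035) had 258 (H3), 530 (H4), 465 (H6) and 816 CPM (H7) in healthy and 1964 to 17972 CPM (median 6455) in CIA mice. Its log2 fold change was 3.61 ± 0.76 (SE; edgeR, adjusted p = 0.0204). *S100a9* had 361, 392, 194 and 204 CPM and 466 to 5177 CPM (median 2441), with a log2 fold change of 2.92 ± 0.71 (edgeR, adjusted p = 0.0354). Neither overlapped. They were the 2 genes of 534 (0.375%) that the edgeR test called between severe and mild CIA, higher in severe mice by log2 fold changes of 2.66 ± 0.39 (adjusted p = 0.0116) and 2.53 ± 0.40 (adjusted p = 0.012). That count was 0 without S3, S5, S6 or S8, 1 without S2 and 4 without H4, and severe mice came from 2CIA and mild mice from CIA, so the arthritis score and the experiment cannot be told apart. Per the study's methods, mice were killed on reaching a set score or after a fixed time from immunization. The time after immunization may therefore differ between severe and mild mice as well.

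B cells of CIA spleens also held more of these transcripts than those of healthy spleens, without overlap. The sum of *S100a8* and *S100a9* was 618 to 1021 CPM in the monocytes of healthy mice, 2630 to 3223 CPM in those of mild and 14382 to 22978 CPM in those of severe mice. In B cells of the same spleens it was 802 to 1468, 1873 to 2914 and 8653 to 21701 CPM. The ratio of monocytes to B cells within a mouse was 0.688 to 2.00 (median 0.981, 10 mice), and that to NK cells 0.665 to 1.71 (median 1.14, 9 mice). Against T cells it was 0.499 to 1.84 (median 1.30), above 1 in 5 of 6 mice. Within the monocytes *S100a8* was at 13306 CPM in the *F13a1* cluster, 2844 in the *Naaa* cluster and 4490 in the *Siglech* cluster. Granulocytes of S1, S2 and S3, the mice with at least 10 of them, held 351746 to 392936 CPM. Neither the B cell nor the NK cell comparison called *S100a8* as differing in its CIA effect (edgeR, adjusted p = 0.445 and 0.631). A missing call does not show an equal effect. Free granulocyte RNA as a source of these UMIs was not tested. *Camp*, a granule peptide gene of neutrophils, likewise had a median of 325 CPM in monocytes, 378 CPM in B cells and 317 CPM in NK cells of CIA mice.

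**Figure D4:**
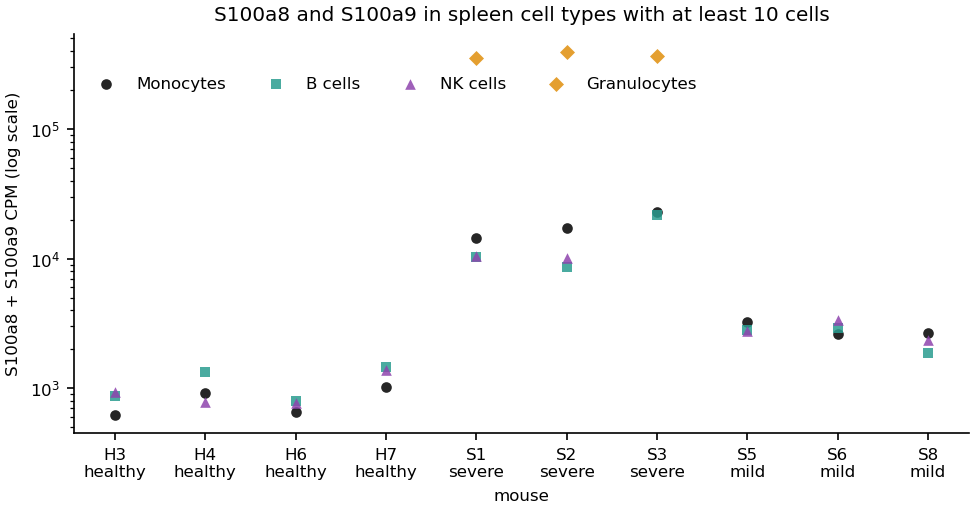
Summed S100a8 and S100a9 level (CPM, log axis) by mouse (horizontal axis, with severity) in spleen monocytes, B cells, NK cells and granulocytes with at least 10 cells. Monocytes, B cells and NK cells lie close together in each mouse, lowest in healthy and highest in severe mice, and granulocytes lie at 351746 to 392936 CPM in S1, S2 and S3.

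Of the 7 tested S100 genes 4 were called higher, against 3.95% of all genes tested, with *S100a6* at a log2 fold change of 1.44 ± 0.33 (adjusted p = 0.0304) and *S100a4* at 1.35 ± 0.35 (edgeR, adjusted p = 0.0398). *S100a10* and *S100a11* were not called (0.84 and 1.09). *Wfdc17*, a whey acidic protein family gene of macrophages, had 103, 223, 155 and 408 CPM in H3, H4, H6 and H7 and 786 to 3659 CPM (median 1506) in CIA mice, without overlap. It rose by a log2 fold change of 2.57 ± 0.51 (SE; edgeR, adjusted p = 0.0159). *Lgals3*, the lectin galectin-3, rose by 2.08 ± 0.50 (adjusted p = 0.0354), *Tspo*, an outer mitochondrial membrane protein, by 1.85 ± 0.46 (adjusted p = 0.0371), and *Alox5ap*, needed for leukotriene synthesis, by 1.83 ± 0.47 (edgeR, adjusted p = 0.0398).

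*Ccl2*, the monocyte-attracting ligand of *Ccr2*, was the 1 tested gene of 18 on the cytokine and chemokine list. Healthy mice had 0 (H3), 117 (H4), 155 (H6) and 40.8 CPM (H7), and CIA mice had 140 to 1155 CPM (median 554), so H6 lay within the CIA range. The log2 fold change was 2.26 ± 0.59 (SE; edgeR, adjusted p = 0.0398), and 2.07 with adjusted p = 0.071 once plasma cell-like cells were left out.

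Immunoglobulin and plasma cell genes made up 8 of the 11 lower calls. Of 5 tested constant region genes 4 fell, with a median log2 fold change of -2.26, and 2 of 3 tested plasma cell genes fell, with a median of -2.02, against 2.41% of all genes tested. *Jchain* had 16905 (H3), 14680 (H4), 8635 (H6) and 20288 CPM (H7) in healthy and 281 to 7825 CPM (median 4161) in CIA mice, without overlap. It fell by 2.28 on the log2 scale (SE 0.59; edgeR, adjusted p = 0.0398). *Igkc*, the kappa constant region, had 57259, 47816, 28266 and 49271 CPM and 5520 to 36745 CPM (median 15272), with overlap at H6 and a log2 fold change of -1.68 ± 0.41 (edgeR, adjusted p = 0.0364). *Ighm* and *Mzb1* fell by 1.36 (adjusted p = 0.0371) and by 2.02 (edgeR, adjusted p = 0.0354), each with overlap. *Iglc1* (log2 fold change -2.95, adjusted p = 0.193) and *Xbp1* (-0.69, edgeR adjusted p = 0.366) did not pass.

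Lambda genes and single segments rested on few cells. *Iglc2* had 4742, 6014, 1471 and 17227 CPM in H3, H4, H6 and H7, and 491 to 1177 CPM (median 672) in CIA mice. In H7 365 of its 422 UMIs, and in H4 368 of 567, came from 1 cell each. *Igkv1-135* (chr6:67609713-67610508), a kappa variable gene, had 567, 1368, 5034 and 7919 CPM in healthy mice and 4 UMIs over all CIA mice. In H7 189 of its 194 UMIs lay in 1 cell, in H6 128 of 130, and in H3 all 11. The joining segment *Igkj4* had 212 UMIs in H3, 107 of them in 1 cell. The log2 fold changes of these genes, -3.65 for *Iglc2*, -8.23 for *Igkv1-135* and -4.15 for *Igkj4* (edgeR, adjusted p = 0.00272, 0.000675 and 0.0398), compare mice in which 1 cell can hold most of the UMIs. Other variable genes resemble *Igkv1-135*, and *Iglc2* and *Iglc3* are near copies.

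With the plasma cell-like cells left out, no immunoglobulin gene was called. Those cells were chosen by immunoglobulin UMIs and held 95.1% of the *Igkc* UMIs, so the loss of these calls is built into the cut. Of the 29 genes called over all cells 25 were tested there, and *Jchain*, *Mzb1* and *Igkv1-135* were not. *Igkc* then had 1596 to 7450 CPM in healthy and 898 to 1868 CPM in CIA mice (log2 fold change -1.29, edgeR adjusted p = 0.0909). *Iglc2* had a log2 fold change of -1.66 (adjusted p = 0.0508), *Iglc3* of -1.61 (adjusted p = 0.0546) and *Ighm* of -0.81 (edgeR, adjusted p = 0.333). NK cells, which make no immunoglobulin, held *Igkc* at 927 to 5268 CPM in healthy and 1604 to 2352 CPM in CIA mice. A part of free RNA in these remaining values was not tested.

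Noncoding RNAs were the other 3 lower calls. *Malat1*, a nuclear RNA, had 6855, 19474, 8557 and 7674 CPM in H3, H4, H6 and H7 and 4068 to 7964 CPM (median 5506) in CIA mice. It fell by 1.16 on the log2 scale (edgeR, adjusted p = 0.0398) and was the 1 gene still called lower without plasma cell-like cells (-1.20, adjusted p = 0.0495). *Gm42418*, which shares sequence with the ribosomal RNA precursor, fell by 1.02 (adjusted p = 0.0204), and the small nucleolar RNA *Snord13* by 1.20 (edgeR, adjusted p = 0.0398). Without plasma cell-like cells *Snord13* had a log2 fold change of -1.16 (adjusted p = 0.101) and *Gm42418* of -0.72 (edgeR, adjusted p = 0.136), below 0 in both fits but past the threshold only over all cells.

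**Figure D5:**
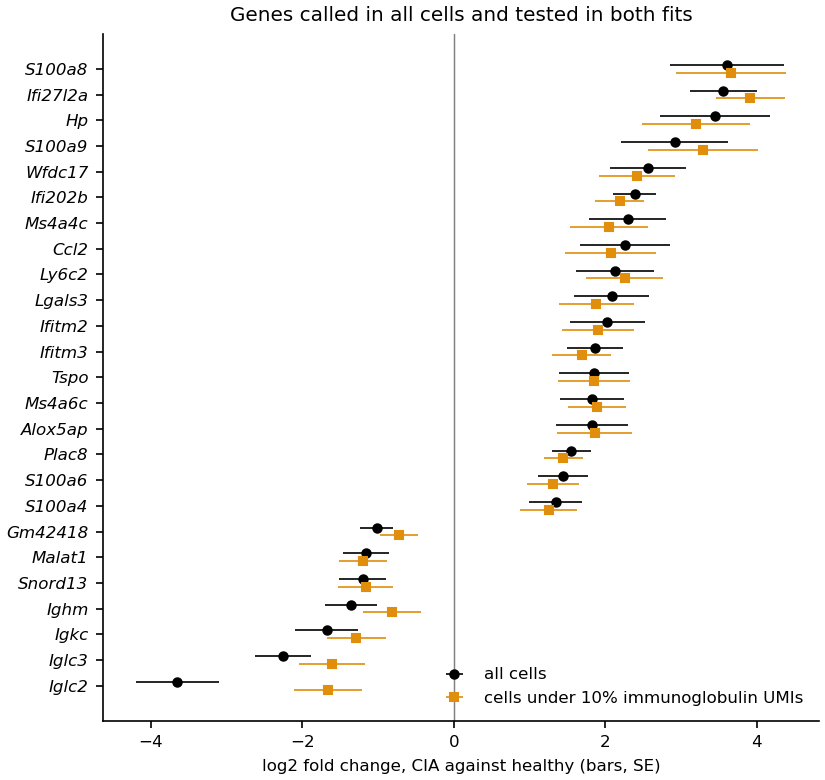
Log2 fold change (CIA against healthy, horizontal axis, bars SE) of the genes called over all spleen monocytes and tested in both fits, in all cells (black circles) and in cells under 10% immunoglobulin UMIs (orange squares). The 18 higher genes lie at like values in both fits, and Iglc2 moves from -3.65 to -1.66.

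The CIA effect in monocytes was compared with that in other cells of the same spleens. Against B cells the interaction in edgeR called 2 of 1132 genes (0.177%), and against NK cells, over 9 mice, 3 of 640 (0.469%). *Igkv1-135* and *Iglc2* were called in both. Their effects were -7.14 (adjusted p = 4.71e-07) and -2.24 (adjusted p = 0.00689) log2 units below those in B cells, and -8.71 and -2.90 below those in NK cells (edgeR, adjusted p = 0.00226 for each). *Wfdc17* was the 1 gene whose rise exceeded that in NK cells, by 2.42 ± 0.52 log2 units (adjusted p = 0.044), and in NK cells its levels overlapped between healthy (109 to 441 CPM) and CIA mice (90.6 to 399 CPM). The count against B cells was 11 without H4, 5 without S2, and 4 without H6 or S5, and that against NK cells was 5 without H7.

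With plasma cell-like cells left out, no gene passed against B cells (0 of 1068, 0%, with 90 at an unadjusted p below 0.05 in edgeR) or against NK cells (0 of 627, 0%, with 62). The smallest adjusted p were 0.0753 and 0.0819. In simulated counts of all monocytes the B cell interaction recovered 8.78% of the genes changed by 2 log2 units. A count of 0 therefore does not show equal CIA effects. *Ifi27l2a* was also at higher levels in other cells of CIA mice. B cells had 72.9 to 301 CPM of it in healthy and 510 to 1390 CPM in CIA mice, and NK cells had 109 to 439 and 722 to 2628 CPM. Its interaction was 1.52 against B cells (adjusted p = 0.0877) and 1.63 against NK cells (edgeR, adjusted p = 0.158). *Ifi202b* in B cells was at 0 to 9.75 CPM in healthy and 0 to 46.3 CPM in CIA mice. Within B cells and within NK cells edgeR called 0 of 1252 and 0 of 421 genes between CIA and healthy mice, with 40 and 11 at an unadjusted p below 0.05.

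Other groups of genes showed no call over all monocytes. The 12 tested immediate early genes, such as *Jun* (log2 fold change -0.86) and *Fos* (-0.60), had a median of -0.50. The 7 tested heat shock genes had a median of -0.31, the 4 MHC class I genes 0.20 and the 4 lysosomal genes 0.36. The 7 tested genes shared by myeloid cells had a median of 0.55, among them the adaptor *Tyrobp* (0.24), the protease *Ctss* (0.18), its inhibitor *Cst3* (-0.13) and the Fc receptor chain *Fcer1g* (1.29, edgeR adjusted p = 0.105). Haemoglobin genes took 0.0348% to 1.43% of UMIs in healthy and 0.199% to 4.81% in CIA mice, highest in S2, and *Hbb-bs* had a log2 fold change of 1.18 ± 0.97 (edgeR, adjusted p = 0.675).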

How the data were processed

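The deposited table of UMI counts per gene and cell (34586 genes, 13240 cells) was used with the authors' annotation of cells. Per the study's methods, the authors made the counts with Drop-seq tools, bcl2fastq, Picard and STAR on GRCm38, kept cells with at least 400 transcripts, 200 genes and at most 6000 transcripts, and named cell types by matching clusters of denoised data to bulk references. Cell type names were then checked with marker genes, which for monocytes include *F13a1* and *Ccr2*, and clusters without a reference were named by such genes. The submitters' processing notes name the builds GRCh38 and mm9 without saying what each was used for. No doublet caller was run, and no spleen monocyte exceeded 6000 UMIs.

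Counts were summed per mouse and cell type (at least 10 cells) and scaled to UMIs per 1000000 UMIs of the same cells (CPM) for display. edgeR 4.0.16 in R 4.3.3 (filterByExpr, TMM, glmQLFit and glmQLFTest, threshold 0.05 on Benjamini-Hochberg adjusted p) was the main test, on healthy and CIA mice without covariates. The standard error is the absolute log2 fold change divided by the square root of F. Severity was a contrast in a fit of 3 groups, and interactions with B or NK cells had the mouse as a block (NK cells in 9 mice, since S3 had 9 such cells). Alternatives included DESeq2 1.42.0, limma 3.58.1 and the experiment as a term, since 1 of 4 healthy and 3 of 6 CIA mice belonged to 2CIA. Scripts were tested on counts simulated with log2 changes of 2. The main test recovered 57.5% of the changed genes tested, the severity contrast 23.0% and the B cell interaction 8.78%. Correlations of log2 CPM between mice of one group were 0.667 to 0.781 in healthy and 0.633 to 0.857 in CIA mice. Single values per mouse were compared by exact two-sided permutation tests (scipy 1.17.1). Mice are separate animals, and cells were never counted as replicates.

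Immunoglobulin-rich cells were those with at least 10% of UMIs on 320 immunoglobulin genes, *Jchain* among them. The other cells were clustered by k-means (scikit-learn 1.9.0) into 3 clusters on 8 components of 300 variable genes. Named genes were every gene called in the main comparison, the label's markers, up to 4 members of each list with the highest mean CPM and the genes called in other comparisons; Siglech, Clec9a, Ifi211, Ifi207, the genes of the Naaa cluster and genes at 0 in healthy mice were named after their values were seen. The cells, gene lists and tests were chosen with earlier results of these data known. Total UMIs of 15580 to 175378 per mouse limit the precision for the shallowest mouse. Gene positions come from the GRCm38 annotation, and promoters from RefSeq GRCm38.p6.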

Additional observations from a re-analysis of the deposited data

Results flagged for a closer look

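In 73 groups of mice examined gene by gene, 5 single mice lay far from the rest of their group, where chance gives about 1 in 20 groups. *Ifi27l2a* was at 361 CPM in healthy mouse H3 and at 116 to 122 CPM in the other healthy mice. *Malat1* was at 19474 CPM in healthy mouse H4 and at 6855 to 8557 CPM in the others. *Igkv1-135* was at 105 CPM in CIA mouse S6, 3 UMIs of 1 cell, and at 0 to 5.70 CPM in the other CIA mice. *Wfdc17* was at 3659 CPM in CIA mouse S3 and at 786 to 1676 CPM in the others. *Cxcl3* was at 19.8 CPM in CIA mouse S1 and at 0 to 5.70 CPM in the others.

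By the edgeR interaction, the CIA effect on *Igkv1-135* differed from that in B cells by -7.14 log2 units and from that in NK cells by -8.71. The effect on *Iglc2* differed by -2.24 from that in B cells and by -2.90 from that in NK cells. The effect on *Wfdc17* differed from that in NK cells by 2.42. With immunoglobulin-rich cells left out, the difference for *Wfdc17* was 2.16 (edgeR, adjusted p = 0.0819).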

How the results depend on the processing

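All 31 genes followed through the alternatives kept their direction in each fit that tested them: of 692 refits 470 stayed on the same side of the threshold, 218 lost the call and 4 gained it. Against 18 higher and 11 lower genes, plain library sizes gave 40 and 4, no filter on low counts 31 and 50, the experiment CIA alone 2 and 1, and thinning to one depth 9 and 8. DESeq2 called 20 lower, removal of immunoglobulin genes left 5, limma on means over cells 5, and leaving out immunoglobulin-rich cells 1. The experiment as a term gave 13 and 10, and 8 of the 29 genes lost their calls. Leaving out single mice gave 3 to 17 higher (lowest without H6) and 4 to 8 lower. The count between severe and mild mice was 2, rose to 25 without a filter, and ranged from 0 to 4 over single mice. The interaction with B cells called 6 genes in DESeq2, 20 without a filter, 1 without the mouse block, 0 without immunoglobulin-rich cells and 2 to 11 over single mice. That with NK cells called 5 with plain library sizes, 8 without a filter, 0 without the mouse block, 0 without immunoglobulin-rich cells and 2 to 5 over single mice. The cause was not tested, beyond the fewer genes or mice in the fits with stronger filters or left-out mice. The difference in the share of immunoglobulin-rich cells was -19.1 to -15.3 points over single mice (exact permutation p = 0.00794 to 0.0119) and -16.1 in the experiment CIA. The difference in monocyte share was -3.72 to -0.393 points and that in median UMIs 25.8 to 152, with exact permutation p above 0.18 in each fit. The replicate block called 18 higher and 11 lower genes, 18 of the 29 shared. Its numbers did not pair the mice, since numbers 3 and 6 were carried by different animals whose deviations correlated at 0.128 and 0.111. The alternatives on interactions without immunoglobulin-rich cells, on the 10% cut and on the number of clusters were chosen after seeing the data. Both limits on cells per mouse kept the same mice and repeated the main fit, so their refits could not differ. Fits in which a gene was no longer tested are not among the 692 refits. At 21 monocytes in the smallest sample, genes of low level could not be tested.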

Other observations

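Interferon-inducible genes outside the tested set had few UMIs in spleen monocytes. *Irf7*, a transcription factor of the interferon response, had 5 UMIs in healthy and 57 in CIA mice, and *Isg15*, a ubiquitin-like modifier, had 14 and 71. *Ifit1*, an RNA-binding interferon-induced protein gene, had 4 and 4. *Clec4a3*, a lectin receptor of the non-classical list, had 3 and 33 UMIs. *Trf*, transferrin, had 12 and 10 UMIs, and *Cd163*, the haemoglobin scavenger receptor of macrophages, had 0 and 4. These values carry no test.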
